A study of Equus caballus with 26 samples.

Results

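The genes of glucose breakdown in blood cells were followed through a 160 km ride: 39 genes were listed by name, in 5 roles, as sugar and lactate transporters (7 genes), glycolysis (21 genes), lactate dehydrogenase (2 genes), the control of pyruvate dehydrogenase (6 genes) and the pentose phosphate pathway (3 genes). They were listed by what they encode, but with earlier results of these data known, so that the list was not blind to their values. Of the 39, 38 had a probe among the 24415 gene names of the array, and no probe was found for SLC2A6, a glucose transporter. All 38 were well above background on 3 or more of the 26 arrays, and 33 of them were so on every array.

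Whole blood of Arabian or half-breed Arabian horses in 160 km endurance competitions was taken at rest before the ride (T0) or directly after it (T1). In the experimental set, 3 geldings (horses 2, 32 and 41) were measured at both times. The validation set held 7 horses at T0 (4 geldings and 3 females) and 13 other horses at T1 (10 geldings and 3 females), none of them at both times, so that there the ride was compared between different animals. By the study's methods all validation horses at T1 had completed the ride, whereas most of those at T0 were later stopped at a veterinary check, so that time and outcome cannot be told apart in that set. The design text gives a mean age of 10 years over all horses recruited, and the breed field of every sample reads Autre. No genotype or drug set the groups apart, and no horses that stayed unridden were part of the samples, so that the ride and the time that passed cannot be told apart.

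Glycolysis splits glucose into pyruvate in the cytosol and pays out ATP and NADH. Lactate dehydrogenase turns pyruvate into lactate and recycles the NADH, or pyruvate enters the mitochondrion, where pyruvate dehydrogenase feeds it to the citric acid cycle unless its kinases (PDK) have switched it off. The pentose phosphate pathway branches off at the first sugar phosphate and makes NADPH and ribose. Neutrophils live largely on glycolysis and use the NADPH of the pentose branch for their oxidative burst, whereas resting lymphocytes burn more of their fuel in mitochondria.

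Each value below is the log2 of the signal of 1 probe less the 75th percentile of log2 signals on the same array. A value of 0 is therefore a signal at that percentile, and each step of 1 doubles the signal. Levels of different genes are not set against each other, since each probe has a brightness of its own. Where a gene had several probes, the brightest was used.

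The results turn on the regulators and enzymes of the phosphofructokinase step, whose probes have to tell close relatives apart. The 60-base probes of the 3 PFKFB genes, which make and break the sugar phosphate that switches phosphofructokinase on, are shown first. Capitals mark the longest run that the PFKFB3 and PFKFB4 probes share, which was 6 bases, and the PFKFB2 and PFKFB3 probes shared no run longer than 5 bases. Positions are those of the array design on EquCab1, and the span of PFKFB3 (chr29:26615831-26616256, minus strand) and of PFKFB4 (chr16:38446758-38447563, plus strand) is longer than the probe. That of PFKFB2 is chr5:3296520-3296579 on the plus strand.
PFKFB3: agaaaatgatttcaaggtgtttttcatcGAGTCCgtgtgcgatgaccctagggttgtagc
PFKFB4: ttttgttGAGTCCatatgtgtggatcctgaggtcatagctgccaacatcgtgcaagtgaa
PFKFB2: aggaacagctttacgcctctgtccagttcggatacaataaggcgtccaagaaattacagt

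PFKL and PFKP encode the liver and platelet forms of phosphofructokinase itself, the enzyme that commits glucose to glycolysis. Their probes lie at chr26:2295675-2296136 (minus strand, again a span longer than the probe) and chr29:29783010-29783069 (minus strand). They share a run of 14 bases, in capitals, and match at 35 of 53 bases in their best alignment without gaps. How far each probe binds the transcript of the other was not measured.
PFKL: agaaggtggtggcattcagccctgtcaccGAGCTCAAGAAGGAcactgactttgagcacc
PFKP: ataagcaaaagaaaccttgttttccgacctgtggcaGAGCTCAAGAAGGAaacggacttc

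Between 60.4% and 75.4% of spots were well above background per array. The T1 array of validation horse 34 was scanned in 1 pass and held all 431 saturated spots. The T0 array of validation horse 47 stood apart from the other 6 T0 arrays: its summed signal of neutrophil markers was 9.78 on the log2 scale, against 7.30 to 7.76 in the others, and that of T cell markers was 4.20, against 5.03 to 5.57. Of the 16 members found higher at T1 in the validation set, 12 had their highest T0 value in horse 47, and all 3 members found lower had their lowest T0 value there.

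In the experimental set, 7 of the 37 members tested rose from T0 to T1 and none fell (limma with the horse as a block, adjusted p under 0.05). Over all 17490 gene names tested there, 10.3% passed, 6.22% higher and 4.04% lower. The 7 were SLC2A3, PFKFB3, PGK1, LDHA, PGD, TKT and PFKFB2, the last of which was bright enough to be tested only through its T1 arrays. They are 18.9% of the members tested, and 13 members had an unadjusted p under 0.05. Over 12 alternatives of processing, model or horses, PFKFB3 was called in 9, SLC2A3 in 8 and PGK1 and TKT in 7 each. LDHA was called in 5 of the 12 and PGD in 3, and PFKFB2 in 6 of 11. The median change of the members was 0.57 on the log2 scale, against 0.03 over all gene names tested. Without horse 2 0 members passed, with 12 at an unadjusted p under 0.05, without horse 32 only 2 did, and without horse 41 the count was 9, of which PFKL and PDK2 were lower. T1 lay wholly above T0 in 16 members and wholly below in 4, a separation seen in 35.6% of all gene names with 3 arrays against 3.

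The validation set gave 19 calls among 37 members, 16 higher and 3 lower at T1. Among all 17404 gene names tested there 44.2% passed, 20.2% higher and 24% lower, beside 51.4% of the members. Their median change was 0.43, against -0.07 over all gene names. Only SLC2A3 and PFKFB2 had every T1 horse above every T0 horse, which held for 1.45% of all gene names in that direction and for 2.21% in either. PFKFB2 was mostly not above background at T0. The count was 20 without the T0 array of horse 47 and 18 without the T1 array of horse 34.

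The sets share no horse and no array. All 7 members called in the experimental set were called in the validation set, in the same direction, and they made up 36.8% of the 19 calls there. PFKFB2 is among the 7 and entered both tests only through its T1 arrays. The change of all 19 had the same sign in the experimental set, and 17 of them moved that way in each of the 3 horses. How many calls recurred or kept their sign over all gene names was not counted, and 44.2% of all gene names passed in the validation set. This overlap is therefore not shown to be particular to the members. No member differed between the sets in its change over the ride when the difference itself was tested (limma over all 26 arrays), and the smallest unadjusted p among the 38 was 0.266. Over all 19411 gene names, 0 passed that test and 158 had an unadjusted p under 0.05. With so few experimental horses, an empty result of this test does not show that the sets are alike. Of the members, ENO2 alone was too dim to be tested in either set.

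**Figure D1:**
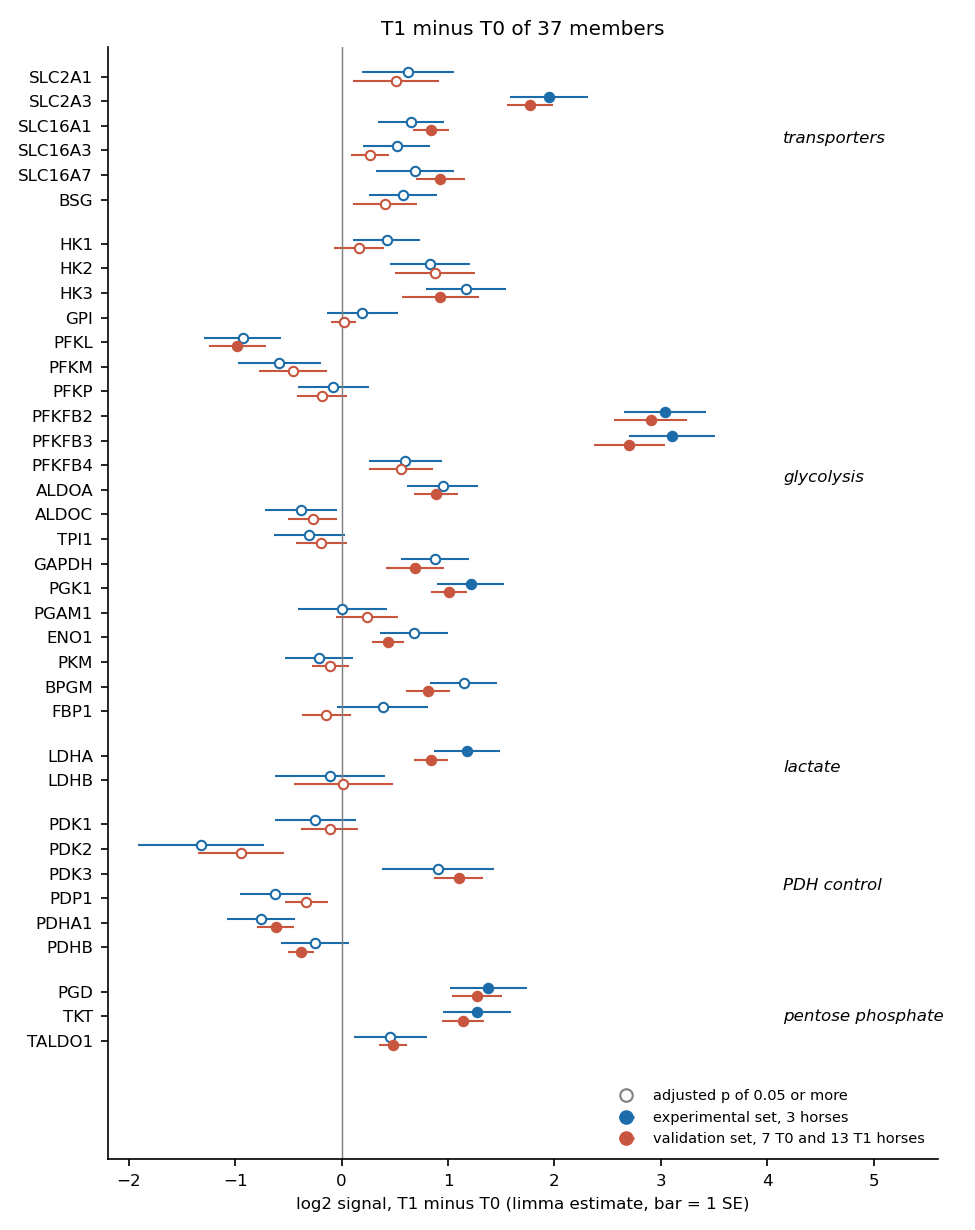
Change of each tested member from T0 to T1 as the limma estimate in log2 units (x axis, bar = 1 SE), grouped by role, with the experimental set of 3 horses in blue and the validation set of 7 T0 and 13 T1 horses in red. Filled points passed an adjusted p of 0.05: 7 in the experimental set, all to the right of 0, and 19 in the validation set, of which 16 lie to the right. PFKFB2 and PFKFB3 stand farthest to the right in both sets.

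Among the transporters, the neutrophil and neuron type glucose carrier SLC2A3 (GLUT3) rose in both sets, whereas the common carrier SLC2A1 (GLUT1) did not pass in either. SLC2A3 stood at -2.78, -2.31 and -2.24 at T0 in horses 2, 32 and 41, and at -0.15, -0.30 and -1.03 at T1 (the 3 horses are given in this order throughout). The 7 validation horses at T0 ran from -2.99 to -1.13 with a median of -2.78, and the 13 at T1 from -1.09 to 0.16 with a median of -0.87. The groups did not overlap in either set, and horse 47 was the T0 animal nearest to T1. The change was 1.95 (SE 0.36, limma adjusted p = 0.0171) in the experimental set and 1.77 (SE 0.21, adjusted p = 4.76e-06) in the validation set, or 3.41-fold in the latter. Without the array of horse 47 it was 2.00.

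SLC2A1 was dim, with 15 of 26 arrays well above background. It spanned -7.11 to -4.38 among the validation horses at T0 and -6.50 to -3.60 at T1, so that the groups overlapped widely, and its change of 0.51 (SE 0.41) did not pass (limma adjusted p = 0.329). It was higher at T1 in 2 of the 3 experimental horses.

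The monocarboxylate carriers move lactate and pyruvate through membranes. SLC16A1 (MCT1) had a T0 range of -1.15 to -0.35 in the validation set, median -0.65, and at T1 ran from -0.70 to 0.73, median 0.19. All but 2 of the 13 horses at T1 lay above the highest T0 horse. The change was 0.84 (SE 0.17, limma adjusted p = 0.000471). Its second probe changed by only 0.13, so that this result rests on the brighter of 2 probes that disagree. The brighter probe moved up in each of the 3 experimental horses, by 0.40, 0.79 and 0.76, and did not pass (adjusted p = 0.199).

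SLC16A7 (MCT2), a carrier of high affinity, was at -5.55 to -3.68 in validation horses at T0 and at -4.38 to -2.76 at T1, with medians of -4.40 and -3.60. It rose there by 0.93 (SE 0.23, limma adjusted p = 0.00257), with 9 of 13 T1 horses above every T0 horse, and its second probe changed by 1.26. The carrier that exports lactate from glycolytic cells, SLC16A3 (MCT4), ran from -0.14 to 0.89 at T0 and from -0.11 to 1.18 at T1 and did not pass (0.27, adjusted p = 0.244). BSG (basigin), the partner that brings these carriers to the membrane, changed by 0.41 with an SE of 0.30 and did not pass (adjusted p = 0.284).

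The hexokinases trap glucose in the cell as its phosphate. HK3, the form of myeloid cells, had T0 values of 3.05, 3.28 and 3.63 in the experimental horses and T1 values of 5.10, 4.26 and 4.10, each horse higher at T1. Its change of 1.17 (SE 0.38) missed the threshold there (limma adjusted p = 0.0807). In the validation set it spanned 2.01 to 4.28 at T0 and 1.67 to 4.77 at T1, with medians of 2.77 and 4.14. The groups overlapped over almost their whole range, and the call of 0.93 (SE 0.36, adjusted p = 0.0432) was kept in only 4 of 12 alternatives. Without the T1 array of horse 34 the adjusted p was 0.0593, and with the scan day as a block it was 0.345. On 2 of the 5 scan days that held both times, the mean of HK3 was lower at T1. The 5 days held 1 or 2 arrays at T0 and 1 to 4 at T1 each, and these 2 days had 1 array at T1.

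HK1, the housekeeping form, changed by 0.16 (SE 0.23) in the validation set, and its other 4 probes gave changes between 0.16 and 0.22. The HK1 probes overlap almost fully. HK2, the inducible form, spanned -1.36 to 0.75 at T0 and -1.54 to 1.61 at T1, and its change of 0.87 (SE 0.38) did not pass (limma adjusted p = 0.0638). Without the array of horse 47 HK2 passed, at 1.08 (adjusted p = 0.023). The other HK2 probe, also well above background on every array, changed by -0.04. GPI, which turns glucose phosphate into fructose phosphate, changed by 0.02 (SE 0.12) and did not pass, whereas under quantile normalization it was lower at T1, by -0.26 with an adjusted p of 0.0277, so that its direction turned with the scaling.

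On the processed signal, PFKFB3 and PFKFB2 had the largest fitted changes of the members tested, an order that did not hold for PFKFB2 with normexp background correction, which adds an offset to every spot (0.65 in the validation set, against 1.23 for SLC2A3). The PFKFB enzymes set the level of the sugar phosphate that activates phosphofructokinase, and PFKFB3 is the inducible form whose kinase far outweighs its phosphatase. Its experimental values were -3.94, -4.05 and -3.47 at T0 and -0.39, -0.28 and -1.47 at T1. In the validation set it ran from -4.71 to -0.84 at T0 (median -3.96) and from -1.22 to -0.31 at T1 (median -0.88). The other 6 T0 horses lay at or below -3.37, and horse 47, at -0.84, lay among the T1 horses. It rose 8.60-fold in the experimental set (log2 SE 0.41, limma adjusted p = 0.00469) and 6.52-fold in the validation set (a log2 change of 2.70, SE 0.33, adjusted p = 6.21e-06). Without horse 47 the validation change was 3.16.

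PFKFB2, the form of heart and several other tissues, was near or under background at T0. It was well above background in 1 of 3 experimental horses and 1 of 7 validation horses at T0, and in every horse at T1. The experimental values were -6.60, -6.41 and -5.76 at T0 and -2.89, -3.10 and -3.68 at T1. The validation values ran from -7.84 to -4.39 at T0 (median -6.74) and from -4.29 to -2.70 at T1 (median -3.64). No T0 horse reached the lowest T1 horse in either set. The measured change was 3.03 (SE 0.39, limma adjusted p = 0.00429) and 2.90 (SE 0.34, adjusted p = 4.23e-06). It was taken against T0 signals that were mostly not above background, so that its size is not fixed by these arrays. PFKFB2 entered the test in both sets only through its T1 arrays, so that these p-values are no support of their own.

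The size of the PFKFB2 change depended on how background was handled. With normexp correction it was 0.65 in the validation set and 0.72 in the experimental set, where it no longer passed (limma adjusted p = 0.0607). PFKFB3, which was brighter, kept changes of 1.55 and 1.86 under that correction and passed in both sets. The third relative on the array, PFKFB4, ran from -5.26 to -3.25 at T0 and from -4.87 to -2.58 at T1 in the validation set and did not pass (0.56, SE 0.30, adjusted p = 0.142). It lay higher at T1 in each experimental horse, by 0.59, 0.05 and 1.15.

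**Figure D2:**
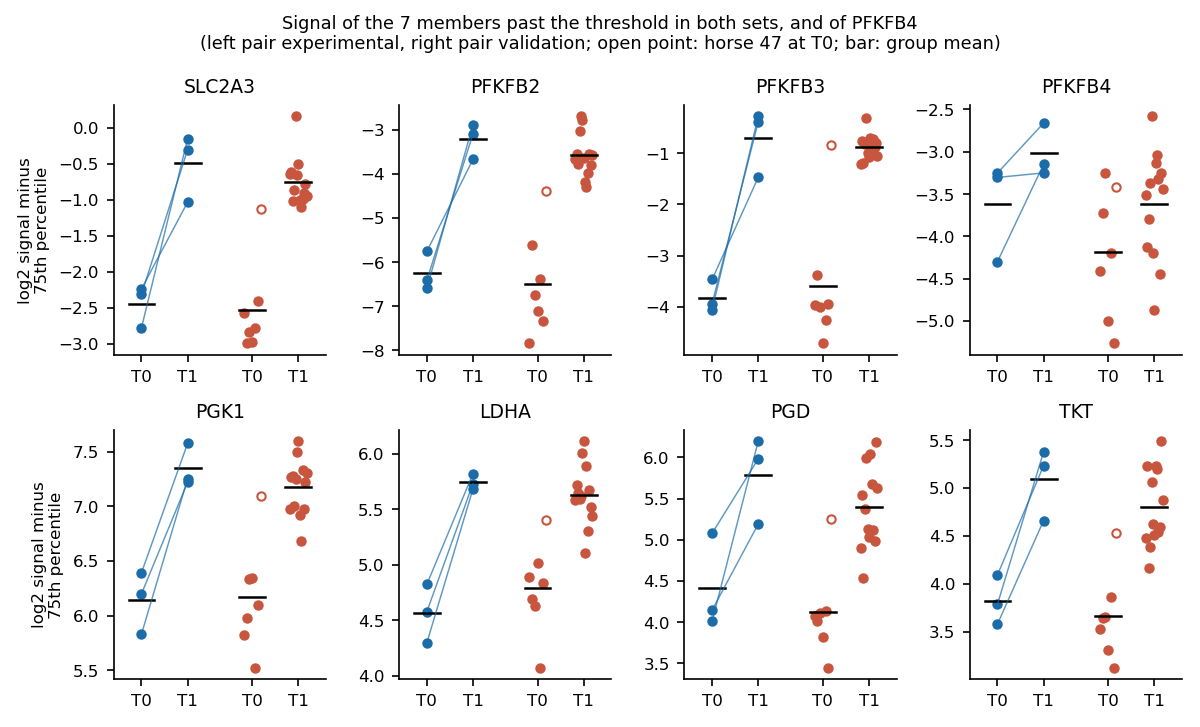
Log2 signal less the 75th percentile of the array (y axis) in each horse for the 7 members that passed in both sets, and for PFKFB4, which passed in neither. Within a panel the left pair of columns is the experimental set, with a line for each horse, and the right pair is the validation set; bars are group means, and the open point is horse 47 at T0. PFKFB3 was at -0.84 in horse 47 and at or below -3.37 in the other 6 validation horses at T0.

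While these regulators rose, the phosphofructokinase gene PFKL moved the other way. It stood at 0.33, 1.01 and -0.36 at T0 and at -0.70, -0.55 and -0.55 at T1 in the experimental horses. Every T1 value was below every T0 value, and the change of -0.93 (SE 0.36) did not pass there (limma adjusted p = 0.126). The validation horses ran from -0.33 to 0.74 at T0 (median -0.02) and from -2.59 to 0.06 at T1 (median -0.80). Of the 13 T1 horses, 10 lay below the lowest T0 horse. PFKL fell by 0.98 (SE 0.27, adjusted p = 0.00535). Its mean was lower at T1 on each of the 5 scan days that held both times, with 1 to 4 arrays per time and day.

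The other phosphofructokinase genes did not pass. PFKP ran from 1.06 to 2.17 at T0 and from 0.25 to 2.17 at T1 in the validation set, with a change of -0.18 (SE 0.23). PFKM, the muscle form, was well above background on 16 arrays and changed by -0.45 (SE 0.32, limma adjusted p = 0.265).

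Below the committed step, several enzymes of the shared trunk were higher at T1. PGK1, which makes the first ATP of the pathway, stood at 6.39, 5.83 and 6.20 at T0 and at 7.58, 7.25 and 7.22 at T1 in the experimental horses, with no overlap. The validation range was 5.52 to 7.10 at T0 (median 6.09) and 6.68 to 7.60 at T1 (median 7.25). Horse 47 was again the highest at T0, the only T0 horse inside the T1 range. The change was 1.21 (SE 0.31, limma adjusted p = 0.0439) and 1.01 (SE 0.17, adjusted p = 0.000105). A probe filed under a second gene name for PGK1 gave 1.22 and 1.05.

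ALDOA, the aldolase of most cells, stood at 7.78, 7.39 and 7.86 at T0 and at 8.62, 8.87 and 8.40 at T1. These groups did not overlap, and the change of 0.95 (SE 0.33) did not pass in the experimental set (limma adjusted p = 0.0981). In the validation set ALDOA ran from 7.25 to 8.28 at T0 and from 7.22 to 9.32 at T1, with medians of 7.63 and 8.51. It rose there by 0.88 (SE 0.21, adjusted p = 0.00179), and 10 of 13 T1 horses lay above every T0 horse. The lowest T1 value was that of horse 34, and without that array the change was 0.99. All 6 ALDOA probes changed by between 0.77 and 0.91, but most of them overlap almost fully, so that they are not separate observations.

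GAPDH, often taken as a reference gene of stable level, was 6.73, 6.90 and 6.33 at T0 and 7.99, 7.51 and 7.09 at T1 in the experimental horses. The validation horses ran from 5.81 to 6.94 at T0 and from 6.39 to 8.41 at T1. The groups overlapped, and 8 of 13 T1 horses lay above every T0 horse. The change of 0.69 (SE 0.27) passed narrowly in the validation set (limma adjusted p = 0.0416) and in 5 of 12 alternatives, and that of 0.88 did not pass in the experimental set (adjusted p = 0.109). GAPDH and PGK1 have processed copies in mammalian genomes, and the share of signal that such copies could add was not measured.

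ENO1, the enolase of most cells, ran from 6.60 to 7.10 at T0 and from 6.64 to 7.94 at T1 in the validation set and rose by 0.43 (SE 0.15, limma adjusted p = 0.0211). At T1, 10 of 13 horses lay above the highest T0 horse, and all 6 ENO1 probes changed by between 0.43 and 0.50. Most of these probes overlap over much of their length. BPGM makes the phosphoglycerate that loosens oxygen from haemoglobin, in a side branch of glycolysis. It ran from -1.75 to -0.88 at T0 and from -1.72 to 0.03 at T1, with medians of -1.58 and -0.48, and rose by 0.81 (SE 0.20, adjusted p = 0.00292). Each experimental horse was higher in BPGM at T1, by 1.19, 0.86 and 1.39, and the change of 1.15 missed the threshold (adjusted p = 0.0528).

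The remaining trunk genes did not pass in either set. TPI1, which interconverts the triose phosphates, changed by -0.19 (SE 0.24) in the validation set, and PGAM1, the phosphoglycerate mutase, by 0.24 (SE 0.29). PKM, the pyruvate kinase of white cells and the last step of the pathway, ran from 2.45 to 2.85 at T0 and from 1.78 to 3.20 at T1, so that its T1 horses spread to both sides of the T0 horses. Its change was -0.11 with an SE of 0.17. ALDOC, the brain aldolase, changed by -0.27 (SE 0.23), and FBP1, which runs the phosphofructokinase step backwards, by -0.15 (SE 0.23). ENO2, the neuronal enolase, was well above background on 3 arrays in all.

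At the fork after pyruvate, LDHA rose and LDHB did not pass. LDHA encodes the subunit of lactate dehydrogenase that prevails in glycolytic tissue. It stood at 4.82, 4.30 and 4.58 at T0 and at 5.82, 5.68 and 5.73 at T1 in the experimental horses. The validation horses ran from 4.07 to 5.40 at T0 (median 4.84) and from 5.11 to 6.11 at T1 (median 5.62). Of the 13 T1 horses, 11 lay above the highest T0 horse, which was horse 47. LDHA rose by 1.18 (SE 0.31, limma adjusted p = 0.0469) and by 0.84 (SE 0.16, adjusted p = 0.00028). Its experimental call was kept in only 5 of 12 alternatives.

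LDHB, the subunit of oxidative tissue such as heart, scattered from -0.43 to 1.86 at T0 and from -1.24 to 2.46 at T1 in the validation set. Its change was 0.01 with an SE of 0.47 (limma adjusted p = 0.984). Of the experimental horses, horse 2 was higher at T1 by 1.38, horse 32 was lower by -1.66 and horse 41 differed by -0.06. The experimental horses thus moved in both directions.

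The pyruvate dehydrogenase genes held 2 of the 3 falls. PDHA1 encodes the catalytic subunit that the PDK enzymes phosphorylate. It was at 0.11, 0.04 and -0.09 at T0 and at -0.97, -0.47 and -0.78 at T1 in the experimental horses, without overlap, and the change of -0.76 (SE 0.32) did not pass (limma adjusted p = 0.15). Among the validation horses it ran from -0.59 to 0.35 at T0 (median 0.24) and from -1.10 to 0.15 at T1 (median -0.37). Horse 47 gave the -0.59, and the other 6 T0 horses lay between 0.20 and 0.35, above every T1 horse. PDHA1 fell by 0.62 (SE 0.17, adjusted p = 0.00621), or by 0.74 without horse 47, and was lower at T1 on all 5 scan days.

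PDHB, the partner subunit of the same enzyme, ran from 0.51 to 1.22 at T0 and from 0.30 to 0.84 at T1 and fell by 0.38 (SE 0.12, limma adjusted p = 0.0143). With the scan day as a block it did not pass (adjusted p = 0.0833), and on 2 of 5 scan days its mean was not lower at T1. PDK3, a kinase that inactivates the complex, ran from -3.06 to -1.88 at T0 (median -2.76) and from -2.16 to -0.42 at T1 (median -1.72). It rose by 1.10 (SE 0.23, adjusted p = 0.000639), with 8 of 13 T1 horses above every T0 horse. Of the experimental horses, 2 were higher in PDK3 at T1, by 2.45 and 0.90, and horse 32 was lower, by -0.63.

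PDK2, the widespread kinase, was dim, with 16 arrays well above background, and changed by -0.95 (SE 0.41), which did not pass (limma adjusted p = 0.0642). With the scan day as a block it was -1.48 with an adjusted p of 0.0121, and with normexp correction -0.14 with an adjusted p of 0.146. PDK1 changed by -0.11 (SE 0.27) and PDP1, the phosphatase that switches the complex back on, by -0.33 (SE 0.21), and neither passed.

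**Figure D3:**
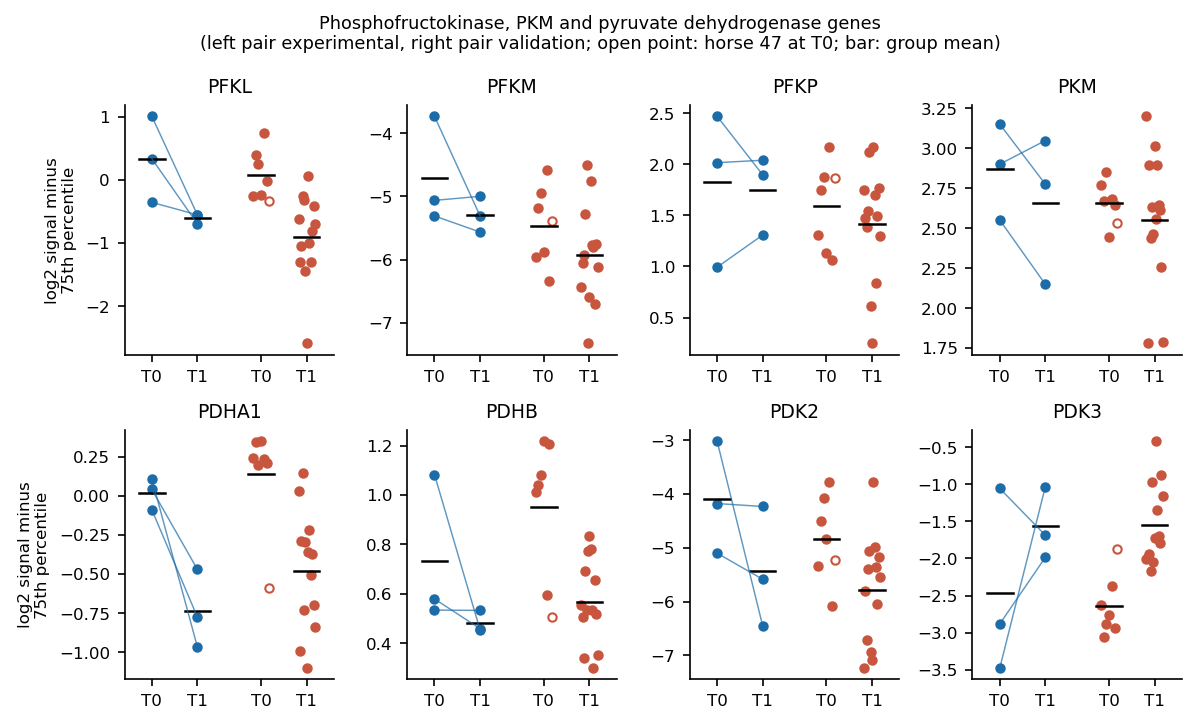
Log2 signal less the 75th percentile of the array (y axis) in each horse for the phosphofructokinase genes, PKM and 4 genes of pyruvate dehydrogenase and its kinases, laid out as in the plot of rising members. PFKL, PDHA1 and PDHB passed as lower and PDK3 as higher at T1 in the validation set, and the other 4 did not pass there. In PDHA1 the T0 point at -0.59 is horse 47.

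All 3 pentose phosphate members rose in the validation set, and 2 of them in the experimental set, where 20.2% and 6.22% of all gene names rose. Of 10 other pentose phosphate genes tested in the validation set, 2 rose and 4 fell, so that the branch as a whole did not move 1 way. PGD makes the second NADPH of the pathway. It stood at 4.01, 5.08 and 4.14 at T0 and at 6.20, 5.98 and 5.19 at T1 in the experimental horses. The validation horses ran from 3.44 to 5.25 at T0 (median 4.07) and from 4.53 to 6.18 at T1 (median 5.37). Horse 47 gave the highest T0 value, and the next was 4.13, below every T1 horse. The change was 1.38 (SE 0.36, limma adjusted p = 0.0465) and 1.27 (SE 0.24, adjusted p = 0.000231), or 1.46 without horse 47. The experimental call was kept in only 3 of 12 alternatives. In the validation set the other 5 probes, which overlap each other almost fully, gave 1.18 to 1.22.

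TKT, the transketolase that ties the pentoses back to glycolysis, stood at 3.79, 4.09 and 3.58 at T0 and at 5.38, 5.23 and 4.66 at T1. The validation horses ran from 3.12 to 4.53 at T0 and from 4.16 to 5.49 at T1, and 9 of 13 T1 horses lay above every T0 horse. It rose by 1.27 (SE 0.32, limma adjusted p = 0.0402) and by 1.14 (SE 0.20, adjusted p = 0.000131). TALDO1, the transaldolase of the same branch, rose by 0.48 (SE 0.13, adjusted p = 0.00551) in the validation set, where its medians were 5.91 at T0 and 6.40 at T1. Its other probes, which overlap almost fully with the one used, gave 0.44 to 0.54. Experimental horse 41 changed by -0.04, and TALDO1 did not pass in that set (adjusted p = 0.402).

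Within an array, the difference between the log2 signals of 2 genes does not change when a constant is subtracted from all log2 signals of that array. For 10 pairs of genes that serve the same step, this difference was compared between 13 horses at T1 and 7 at T0 by an exact two-sided permutation test over all 77520 splits, adjusted over the 10 pairs. Of the 10 pairs, 5 passed. PDK3 moved up against PDK2 by 2.05 (adjusted p = 0.000193), or by 0.90 with normexp correction (adjusted p = 0.000193). PFKFB4 moved down against PFKFB2 by -2.35 (adjusted p = 0.000193), or by -0.42 with normexp correction (adjusted p = 0.0123). The size of both shifts thus depended on how background was handled, and PFKFB2 was mostly not above background at T0. SLC2A3 moved up against SLC2A1 by 1.26 (adjusted p = 0.0381).

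HK3 gained 0.76 on HK1 (exact permutation adjusted p = 0.035) and HK2 gained 0.71 on HK1 (adjusted p = 0.0381). With the mean of the probes of each gene HK2 against HK1 was 0.24 and did not pass (adjusted p = 0.118), the probes of HK2 being at odds. Without the T1 array of horse 34 the SLC2A3, HK3 and HK2 pairs had adjusted p-values of 0.0527, 0.0513 and 0.0527 with nearly the same differences, leaving 2 pairs past the threshold. LDHA against LDHB did not pass (0.83, adjusted p = 0.228), with SDs of 1.19 at T0 and 1.31 at T1. PFKFB3 against PFKFB2 gave -0.20 (adjusted p = 0.458), and 0.90 with normexp correction (adjusted p = 0.000774), so that its direction turned with the background correction. PFKL against PFKM gave -0.53 and SLC16A3 against SLC16A1 gave -0.57, each with an adjusted p of 0.0875, although the former passed with normexp correction (-0.72, adjusted p = 0.000935), and PFKP against PFKM gave 0.27 (adjusted p = 0.256).

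The 3 experimental horses could not pass such a test, since the smallest exact p that their sign flips allow is 0.25. In these horses PDK3 gained on PDK2 by 2.50, 2.80 and 1.38, and PFKFB4 lost against PFKFB2 by -3.12, -3.26 and -0.93. PDK3 also gained on PDK2 in every horse with normexp correction, whereas PFKFB4 against PFKFB2 in horse 41 was then 0.08, the other direction.

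**Figure D4:**
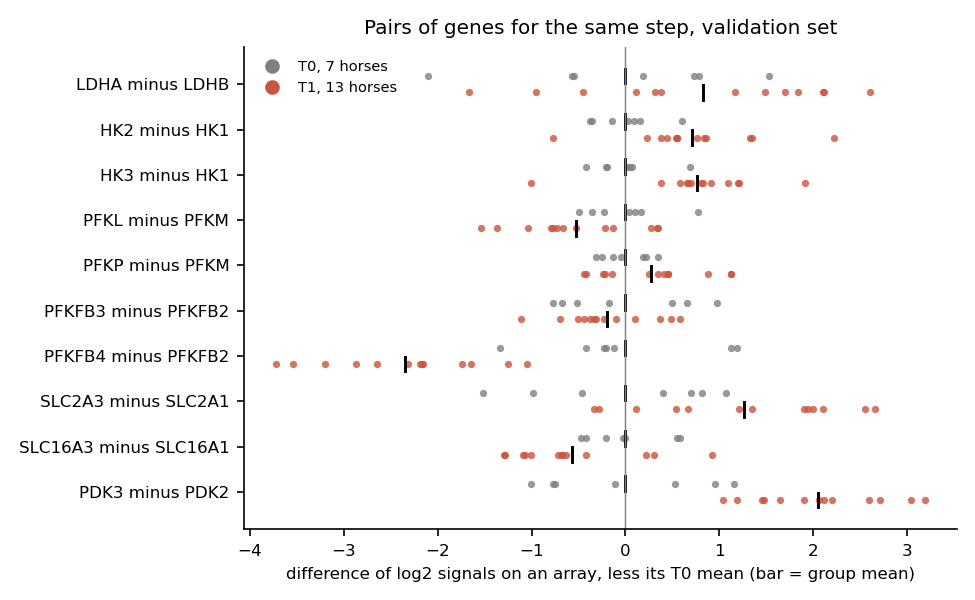
Difference between the log2 signals of 2 genes on the same array, less its mean at T0 (x axis), for the 10 pairs in the validation set, with 7 T0 horses in grey and 13 T1 horses in red and bars at the group means. The T1 mean of PDK3 minus PDK2 lies 2.05 to the right of T0 and that of PFKFB4 minus PFKFB2 lies 2.35 to the left, and the points of LDHA minus LDHB spread widely at both times.

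Of 55 further genes of these routes, 36 were bright enough to be tested in the validation set, where 6 rose and 8 fell, or 38.9% of those tested beside 44.2% of all gene names. The experimental set had 2 of 37 that passed, SLC2A5 and EMB, or 5.41% beside 10.3% of all gene names. SLC2A5 (GLUT5), a fructose carrier, rose by 2.02 (SE 0.44, limma adjusted p = 0.0277) and by 1.65 in the validation set (adjusted p = 0.00515). EMB (embigin), like basigin a partner of lactate carriers, rose by 1.67 (SE 0.33, adjusted p = 0.0196) and by 1.23 (adjusted p = 0.000396).

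TIGAR, a phosphatase that lowers the phosphofructokinase activator and sends glucose towards the pentose branch, rose 2.01-fold in the validation set (log2 SE 0.21, limma adjusted p = 0.000589). H6PD, the pentose enzyme of the endoplasmic reticulum, rose by 1.38 (SE 0.37, adjusted p = 0.0043). In the experimental set it was not well above background in any T0 horse and was so in all 3 at T1, at least 2.33-fold higher. H6PD entered the test there only through its T1 arrays, so that its limma adjusted p of 0.0524 is no support of its own. The carrier SLC16A14 rose by 0.52 (adjusted p = 0.0143) and the ribokinase RBKS by 0.41 (adjusted p = 0.045).

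The other 8 that passed fell. RPIA, which makes ribose phosphate, fell by 0.82 (limma adjusted p = 0.000169). PRPS1 and PRPS2, which turn it into the precursor of nucleotides, fell by 0.94 and 0.54 (adjusted p = 0.00952 and 0.0118), and SHPK, a sedoheptulose kinase, fell by 0.88 (adjusted p = 0.000853). The ADP-dependent glucokinase ADPGK fell by 0.54 (adjusted p = 0.00755). The carriers SLC2A8, SLC16A5 and SLC16A6 fell by 1.04, 0.70 and 0.93 (adjusted p = 0.00129, 0.0119 and 0.000488).

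HIF1A, the oxygen-regulated subunit of the hypoxia-inducible factor that drives many glycolysis genes, rose in the validation set by 1.18 (SE 0.19, limma adjusted p = 6.62e-05), from medians of 1.04 at T0 to 2.29 at T1. Its change of 1.21 in the experimental set missed the threshold (adjusted p = 0.0542). MYC, another activator of glycolysis genes, fell by 0.40 (adjusted p = 0.034). Of the 10 regulators listed, 7 were tested, and these 2 passed in the validation set, or 28.6% beside 44.2% of all gene names. In the experimental set 0 passed and 1 had an unadjusted p under 0.05.

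The mix of blood cells moved with the same comparisons. Whole blood RNA cannot tell apart fewer cells of a type and less RNA per cell, and this holds for every change above. Of 13 neutrophil markers 10 had a probe, with none found for CXCR1, FPR1 and FCGR3B, and 8 of them were higher at T1 in the validation set and 6 in the experimental set. Their summed log2 signal ran from 7.30 to 9.78 at T0 and from 9.09 to 11.04 at T1 in the validation set, and from 6.66 to 9.12 and 9.78 to 10.05 in the experimental set. Of 10 immature neutrophil granule markers 5 had a probe, with none found for ELANE, AZU1, CTSG, CAMP and DEFA5. Of the 4 tested, 3 rose in each set and 1 had a change below 0 that did not pass. Their validation sums were 0.80 to 4.02 at T0 and 3.52 to 6.54 at T1. Of 7 monocyte markers tested, 3 rose in each set and 1 fell in the validation set, where their sums ran from 7.48 to 8.31 at T0 and from 7.88 to 9.13 at T1.

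All 8 T cell markers tested fell in the validation set and 6 of them in the experimental set, with sums of 4.20 to 5.57 at T0 and 3.49 to 4.33 at T1 in the former and of 4.95 to 5.50 and 3.82 to 3.98 in the latter. In the validation set B cell markers fell in 6 of 7 and NK cell markers in 6 of 8, with 1 of the latter higher. The B cell sums there ran from 3.44 to 4.67 at T0 and from 1.84 to 3.80 at T1, and the NK cell sums from 4.38 to 7.30 and from 3.43 to 5.01. Of the platelet list 3 genes were tested and 0 passed by limma, with 2 at an unadjusted p under 0.05 in the experimental set and 0 in the validation set, and its defining genes PPBP and GP6 were dim. Of the erythroid list SLC4A1, EPB42 and CA1 were dim and 1 of 4 genes tested rose in each set. Its sums ran from 3.66 to 8.35 at T0 (median 4.30) and from 5.42 to 9.80 at T1 (median 7.20) in the validation set. In the experimental set they ran from 3.61 to 6.44 and from 6.62 to 7.29. Of the basophil and eosinophil list 4 of 5 fell in the validation set, with sums of 2.05 to 3.75 at T0 and -1.04 to 0.60 at T1. The markers of neutrophils, monocytes and lymphocytes that label whole blood were thus present, with platelet and red cell genes in part below detection. The part of these shifts in the changes of the glycolysis genes was not tested.

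**Figure D5:**
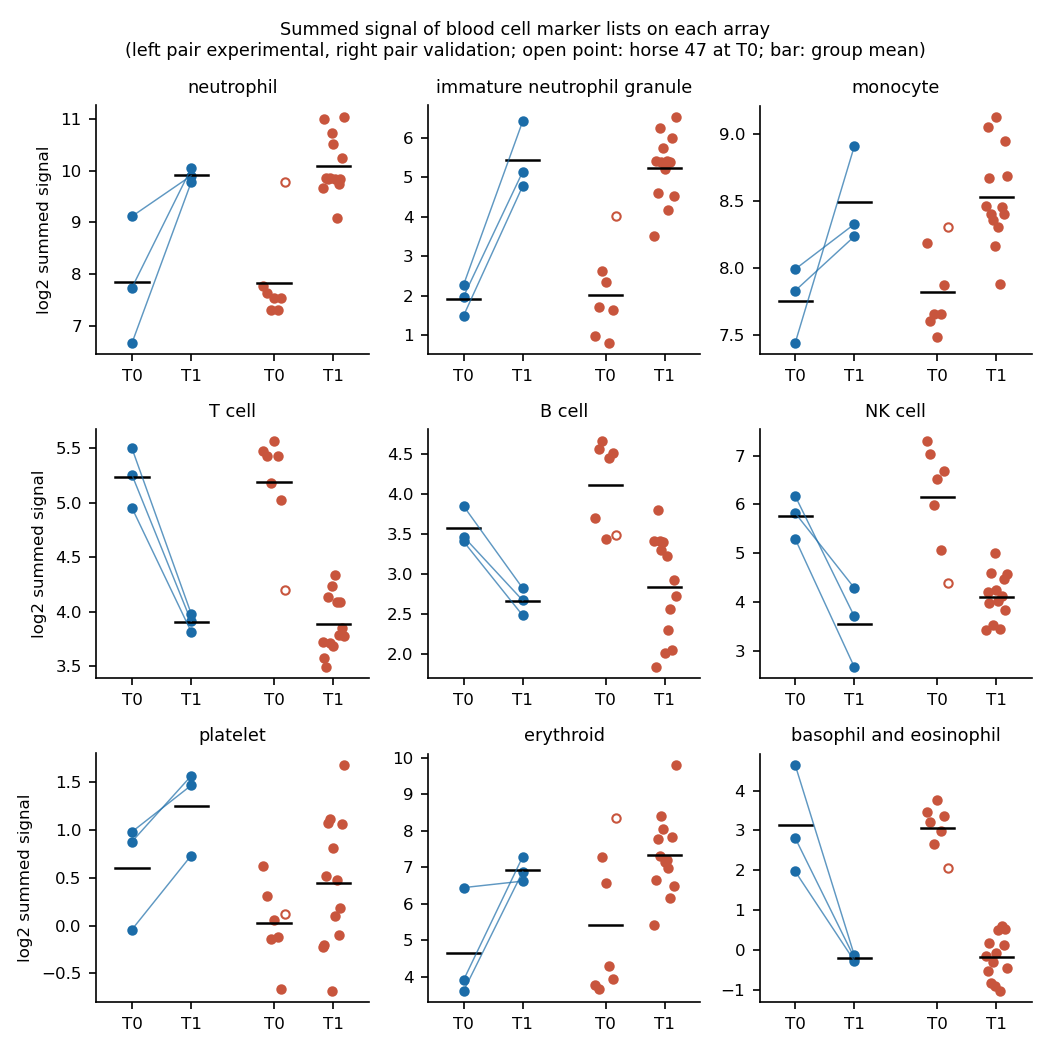
Log2 of the summed signal of each blood cell marker list on each array (y axis), laid out as in the plot of rising members, with the open point for horse 47 at T0. The validation neutrophil sums at T1 (9.09 to 11.04) lie above those at T0 except for horse 47 at 9.78, and the T cell sums at T1 (3.49 to 4.33) lie below those at T0 except for horse 47 at 4.20.

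The array files give the day of each scan, which was taken as a batch. In the validation set 5 scan days held both times. Of the 16 members that rose there, 14 had a higher mean at T1 on each of those days, with HK3 and GAPDH as the exceptions, and of the 3 that fell, PFKL and PDHA1 were lower on each day. Each of these days held 1 or 2 validation arrays at T0 and 1 to 4 at T1. The members were called from the same arrays, so that the days are no separate support. How many of all called gene names kept their direction on each day was not counted. SLC2A3 was higher at T1 by 1.41 to 2.28 over these days, PFKFB3 by 1.11 to 3.45 and LDHA by 0.72 to 2.04. The experimental set had 2 scan days that held both times, always of different horses, and with scan day in place of the horse as a block 0 members passed, with 17 at an unadjusted p under 0.05.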

How the data were processed

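Total RNA of PAXgene whole blood was measured on a custom equine Agilent array with 1 colour, 1 array per sample, in 26 samples of 23 horses. The deposited scanner files hold an intensity per spot that Agilent Feature Extraction 10.7.3.1 made for the authors by subtracting background and removing spatial trends, without normalization between arrays. The authors' series table, deposited as log2 values that were read as quantile normalized, served as an alternative.

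Groups were taken from the set, animal and time in the labels. Control spots and 386 outlier spots were left out, log2 signals were centred on the 75th percentile of each array, spots of a probe were averaged and the brightest of several probes was used for a gene name. Gene names well above background on at least 3 of 6 experimental or 7 of 20 validation arrays were tested with limma 3.58.1 and statmod 1.5.0 in R 4.3.3, adjusted by Benjamini-Hochberg over all of them at a threshold of 0.05. Horse was a fixed block in the experimental set, since the labels pair its arrays by animal. The deviations of a horse's arrays from their group means correlated with r of -0.01, 0.21 and 0.19. The difference between the sets was fitted on 26 arrays with horse as a random block. The fits were tested on simulated data. Python 3.11.15 (numpy 2.4.6, pandas 2.3.3) and matplotlib 3.10.9 were used for counts, permutation tests and plots.

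Symbols came from the gene name of the array (25 members), its description (11 members), the supplementary files of the study (SLC2A3) and a table of RefSeq genes (PGAM1). Every member was named, and of 55 other pathway genes and 10 regulators those that passed, and HIF1A. The members, pairs and marker lists were chosen with earlier results of these data known. The alternatives were quantile normalization, normexp with an offset of 50, the deposited series values, the mean of probes, other filters, scan day, slide or sex as terms, no horse block, a single fit of 26 arrays and leaving out horses. The number of arrays limits the precision. By the study's methods the horses were recruited at several competitions, and the competition of each horse was not fitted. The p-values of the validation set rest on the spread between its animals. Those of the experimental set rest on the spread of the changes within its horses.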

Additional observations from a re-analysis of the deposited data

Results flagged for a closer look

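In 5 of the 38 members, the T0 array of validation horse 47 lay far from the other 6 validation horses at T0, by the gap to its nearest neighbour against the range of the group. It was the highest in SLC2A3, at -1.13 with the next horse at -2.41, in PFKFB3, at -0.84 with the next at -3.37, in ALDOA, at 8.28 with the next at 7.69, and in PGD, at 5.25 with the next at 4.13. It was the lowest in PDHA1, at -0.59 with the next at 0.20. Chance alone marks about 1 in 20 groups in this way, and all 5 came from the same array, so that they are not separate observations. The same array had the highest neutrophil sum and the lowest T cell sum among the T0 arrays (9.78 and 4.20 on the log2 scale) and the highest erythroid sum (8.35). Their part in these values was not tested.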

How the results depend on the processing

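In the experimental set the 7 calls among members became 4 under quantile normalization, 0 without the filter on dim probes and 0 with scan day as a block in place of the horse. Leaving out a horse gave 0 to 9. Without the replicate block, which ignores the pairing by horse, 6 members were called, all among the 7. In the validation set 17 to 20 members were called under all alternatives, and none was called for a difference between the sets in any. The isoform pairs past the threshold went from 5 to 2 without the T1 array of horse 34, and to 7 under normexp and in the series table. Some directions turned. GPI in the validation set became -0.26 under quantile normalization, -0.24 under normexp and -0.23 in the series table. Within scan days in the validation set, HK3 was -1.78 on day 3 and -0.58 on day 7, GAPDH was -0.056 on day 5, and PDHB was 0.24 on day 3 and 0.00 (0.0011) on day 7. Each of these days held 1 validation array at T1. PFKFB3 against PFKFB2 became 0.90 under normexp and 0.95 in the series table (exact permutation adjusted p = 0.000774 and 0.000645). The cause was not tested. With 3 experimental horses, 13 members had an unadjusted p under 0.05 and 7 passed adjustment. SLC2A1, PFKM, PFKFB2, PDK2 and ENO2 were not well above background on every array.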
